A study of Mus musculus with 5 samples.

Results

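Malat1, Neat1, Miat, Tug1 and Gas5 are long noncoding RNAs, that is, transcripts with no known protein product, and all are listed as such in RefSeq. They were followed here over 5 Affymetrix arrays of mouse embryonic stem cells in which Tet1 had been depleted. Their probe sets, the groups of short probes that each give a single value, were taken where the platform annotation listed exactly 1 gene symbol. This gave 18 probe sets for the 5 genes (7 for Malat1, 4 for Gas5, 3 for Tug1, and 2 each for Neat1 and Miat), among 18193 genes with such a probe set. The genes were chosen by their measured differences between depleted and control arrays and between the cell lines, so their values are described here and not tested.

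J1 cells, an established embryonic stem cell line, had been cultured together with MEF feeder cells (mouse embryonic fibroblasts). They received control siRNA or, in the other culture, Tet1 siRNA by transfection, and were taken 4 days later. E14 cells, another established line, had been cultured without feeders. They were infected with lentivirus holding a scramble hairpin, Tet1 shRNA3387 or Tet1 shRNA2863, and were harvested after puromycin selection of 4 days. Each of the 5 groups holds 1 array, so no difference between a pair of arrays carries an error, and both hairpins share the scramble array as control. The 2 J1 and the 3 E14 arrays differ at once in line, in feeders and in how RNA interference was delivered, and these cannot be told apart. Their combination is called the system. Values are the deposited log2 probe set summaries, and a difference is log2 of the depleted array minus its own control unless the systems are named.

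Malat1 is a very abundant nuclear RNA that gathers in nuclear speckles, the bodies rich in splicing factors. Neat1 lies beside it in the genome and forms the core of paraspeckles, bodies that hold RNA-binding proteins such as Sfpq and Nono. Miat, also called Gomafu, is a nuclear RNA of the nervous system, and Tug1 is a broadly expressed RNA first described in the retina. Gas5 carries small nucleolar RNAs (snoRNAs) in its introns. Its spliced RNA begins with a 5' terminal oligopyrimidine tract, as ribosomal protein mRNAs do, and is degraded by nonsense-mediated decay. Tet1 oxidizes 5-methylcytosine to 5-hydroxymethylcytosine and binds DNA rich in CpG.

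Tet1 was checked first. Its brightest probe set read 10.85 and 8.31 in J1 with control and Tet1 siRNA, and 10.95, 9.24 and 10.06 in E14 with scramble, shRNA3387 and shRNA2863. The depleted arrays thus kept 17.2%, 30.6% and 54.0% of the control signal. Array medians lay between 3.45 and 3.52. Of 10 embryonic stem cell markers, 10 were above the filter level (the 40th percentile of each array, 3.03 to 3.12) on all 5 arrays. Of 13 fibroblast feeder markers, each read by its brightest probe set, 10 or 11 were above it. Their mean log2 levels were 5.66 and 5.56 in J1 and 5.46, 5.17 and 5.48 in feeder-free E14. The collagen gene Col1a2 was the feeder marker that separated the systems most clearly, at 6.24 and 5.95 in J1 against 3.59 to 3.62 in E14. In bulk RNA, fewer cells of a type and less RNA per cell cannot be told apart.

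The promoters of these RNAs differ widely in CpG content. RefSeq windows of 300 bases (250 before and 50 after the annotated start, build GRCm38.p6) were found for 4 of the 5 genes by symbol. Because Tet1 acts on CpG, the windows of Malat1, Tug1 and the second of the Gas5 starts are printed, 5′ to 3′ on the strand of the gene, with each CpG in capitals. They lie at chr19:5802623-5802922 (minus strand), chr11:3648765-3649064 (minus strand) and chr1:161034916-161035215 (plus strand).
Malat1: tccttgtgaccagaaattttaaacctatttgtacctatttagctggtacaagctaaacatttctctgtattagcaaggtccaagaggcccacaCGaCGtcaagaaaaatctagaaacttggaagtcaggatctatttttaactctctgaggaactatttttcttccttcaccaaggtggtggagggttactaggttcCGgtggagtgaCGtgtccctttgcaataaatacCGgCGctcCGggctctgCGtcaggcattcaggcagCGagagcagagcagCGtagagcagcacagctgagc
Tug1: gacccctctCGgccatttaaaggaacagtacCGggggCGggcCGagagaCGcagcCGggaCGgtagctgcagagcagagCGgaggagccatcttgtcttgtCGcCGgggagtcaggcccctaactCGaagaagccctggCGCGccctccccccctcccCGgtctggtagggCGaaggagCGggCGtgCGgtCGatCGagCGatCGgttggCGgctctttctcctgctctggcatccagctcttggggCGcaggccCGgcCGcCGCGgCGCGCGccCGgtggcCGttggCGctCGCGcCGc
Gas5: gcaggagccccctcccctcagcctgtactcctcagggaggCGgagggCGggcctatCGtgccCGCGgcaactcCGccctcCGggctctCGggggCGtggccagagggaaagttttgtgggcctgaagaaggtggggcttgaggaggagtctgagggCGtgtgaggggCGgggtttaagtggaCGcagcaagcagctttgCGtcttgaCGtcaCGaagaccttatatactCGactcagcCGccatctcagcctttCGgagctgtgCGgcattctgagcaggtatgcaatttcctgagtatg
The Malat1 window held 10 CpG, a number reached by 43.47% of the 32851 RefSeq windows, whose median was 7. Tug1 held 37 (reached by 5.58%) and Miat 25 (18.43%). Gas5 held 33 at its first start (8.56%) and 19 at the printed one (28.07%). At the printed Gas5 start the RNA begins with a C and a run of 5 pyrimidines in all, the pattern of an oligopyrimidine tract, and at the Miat start with a run of 6. The first Gas5 start, Malat1 and Tug1 have no C followed by 3 or more pyrimidines there. Of all windows, 3.76% began their RNA with a C and at least 3 further C or T. Searched on both strands, GGGCGG (GC box, in 35.66% of all windows) matched 5 times at the first Gas5 start and 3 times at the printed one, and 1 time each in Tug1 and Miat. TATAAA (13.62% of windows), CCAAT (37.41%) and CACGTG (7.15%) had no match in any of these windows, and Malat1 had none for GGGCGG either. Each motif was counted separately, overlaps included, and a match describes letters only. The arrays hold no methylation data.

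Malat1 gave the largest differences of the 5 RNAs, and those of 2-fold or more were all in J1. Its brightest probe set, 1418189_s_at, read 10.30 in the J1 control and 12.03 after Tet1 siRNA, and 8.38, 8.57 and 7.96 in E14 with scramble, shRNA3387 and shRNA2863. The J1 array with Tet1 siRNA was the highest of the 5, the J1 control came next, and the 3 E14 arrays lay together below both. The difference was 1.73 in J1 (3.32-fold higher), against 0.19 with shRNA3387 and -0.42 with shRNA2863. The second probe set, 1418188_a_at, gave nearly the same picture, with 10.05 and 11.75 in J1 and 8.03, 8.39 and 7.74 in E14. Its differences were 1.70, 0.36 and -0.29 for J1 siRNA, shRNA3387 and shRNA2863.

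A further pair of Malat1 probe sets showed the J1 difference at lower signal. Probe set 1438403_s_at read 6.68 and 8.88 in J1 and 4.87, 5.27 and 4.73 in E14, a difference of 2.20 in J1 (4.60-fold higher). Probe set 1427285_s_at read 5.42 and 7.40 in J1 and 3.73, 3.71 and 3.72 in E14, with 1.98 in J1 (3.95-fold) and -0.02 and -0.01 with the hairpins. On this probe set the E14 arrays were indistinguishable from each other and close to the array medians. Just under 2-fold was 1452378_at, which read 5.65 and 6.64 in J1 and 5.59, 5.71 and 5.69 in E14. There the J1 array with Tet1 siRNA stood alone, 1.99-fold above its control, while the J1 control overlapped the E14 arrays.

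The other Malat1 probe sets did not follow this pattern. Probe set 1429060_at read 7.60 and 7.89 in J1 and 6.62, 6.79 and 6.72 in E14, so it shared the higher J1 level but differed by only 0.29 with Tet1 siRNA. Probe set 1436202_at went the other way, with 7.63 and 7.35 in J1 and 7.66, 8.46 and 8.31 in E14. It was lower by a difference of -0.28 with Tet1 siRNA in J1 and higher by 0.80 and 0.65 with shRNA3387 and shRNA2863. On 1436202_at the control arrays were alike (a difference of 0.03 between systems) and the hairpin arrays were the highest.

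Over the 7 Malat1 probe sets, the median difference was 1.70 in J1 (range -0.28 to 2.20), 0.19 with shRNA3387 (-0.02 to 0.80) and -0.01 with shRNA2863 (-0.42 to 0.65). The middle 95% of the 24018 probe sets above the filter ran from -0.79 to 0.94 in J1, from -0.63 to 0.86 with shRNA3387 and from -0.64 to 0.71 with shRNA2863. In J1, 4 of the 18 probe sets of the 5 RNAs were at least 2-fold higher, each of them Malat1, where 2.17% of all probe sets were. At least 2-fold lower were 0 of the 18, against 1.05% of all. With either hairpin, 0 of the 18 were 2-fold different, where 1.64% of all were higher and 0.6% lower with shRNA3387, and 0.691% higher and 0.566% lower with shRNA2863. Since these contrasts chose the genes, nothing is read from the shares. All 18 probe sets passed the filter on at least 1 array.

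The J1 arrays also differed in markers of cell state, and so did the hairpin arrays. With Tet1 siRNA in J1, 10 of 10 embryonic stem cell markers read lower than their control (median difference -0.44). Among all 13619 genes, 6865 read lower there and 6198 higher. Of 7 trophectoderm markers, 5 passed the filter and 4 of these read higher (median 0.47), with mean log2 levels over the 7 of 6.77 and 7.14 in J1 and 6.25, 6.18 and 6.50 in E14. Of 7 primitive endoderm markers, 6 passed and 5 read higher (median 0.27, means of 4.63 and 4.78 in J1 and 4.58, 4.52 and 4.46 in E14). With shRNA3387 and shRNA2863, 6 and 8 of 10 stem cell markers read lower (medians -0.09 and -0.07), beside 7757 and 7503 of 13619 genes. Trophectoderm medians were 0.26 and 0.67, with 3 and 4 of 5 higher. Primitive endoderm medians were -0.035 and -0.01, with 2 and 3 of 6 higher. Neural markers read lower for 3 of 4 in J1 and with shRNA3387, and for 4 of 4 with shRNA2863 (medians -0.25, -0.485 and -0.41). Limma called 0 of these markers with depletion, and their part in the Malat1 difference was not tested. The array controls for RNA quality differed within the J1 pair too. For actin, the 3' minus 5' difference was 0.63 in the J1 control and 0.31 after Tet1 siRNA, and for Gapdh -0.33 and -0.58. The E14 arrays lay between these, at 0.41 to 0.54 and -0.46 to -0.42, and the part of RNA quality in the J1 differences was not tested.

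**Figure D1:**
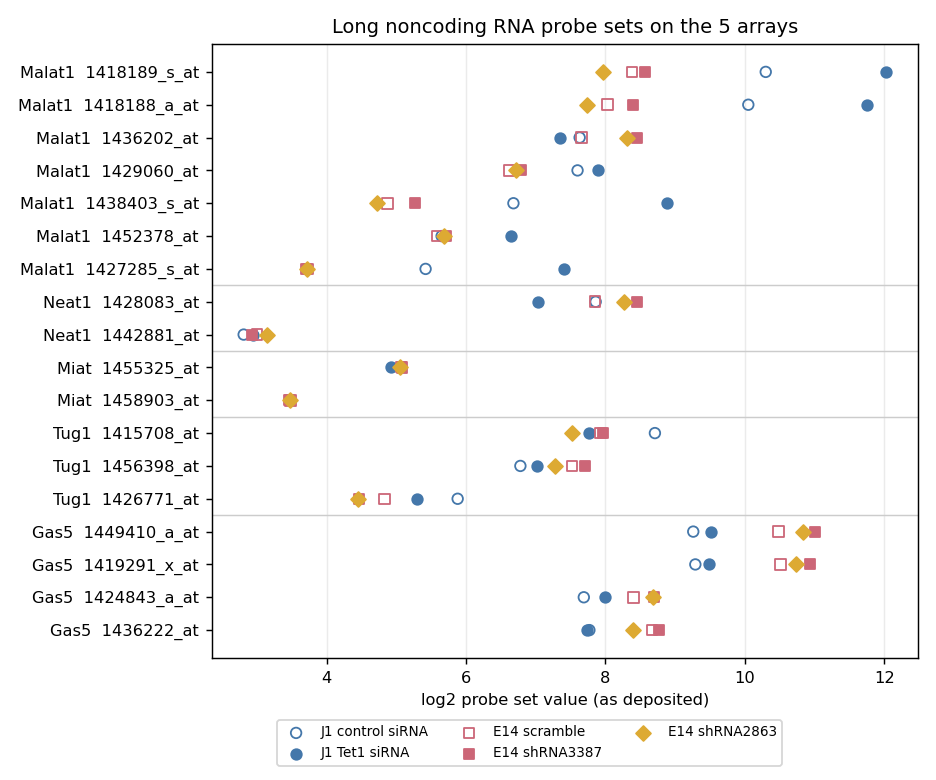
Log2 level of each of the 18 probe sets (rows, grouped by gene) on the 5 arrays (markers, 1 array each, no error available). In 5 of 7 Malat1 probe sets the E14 arrays sit left of both J1 arrays, and in all 4 Gas5 probe sets they sit right of them.

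Neat1, transcribed next to Malat1, went the opposite way in J1. Its brighter probe set, 1428083_at, read 7.86 in the J1 control and 7.03 after Tet1 siRNA, and 7.85, 8.46 and 8.27 in E14 with scramble, shRNA3387 and shRNA2863. The control arrays of the systems were alike, the J1 array with Tet1 siRNA was the lowest and both hairpin arrays were the highest. The J1 level with Tet1 siRNA was 56.3% of its control, a difference of -0.83, just outside the middle 95% of all probe sets on that side. With the hairpins the difference was 0.61 and 0.42, inside that range. The other Neat1 probe set, 1442881_at, read 2.81 and 2.94 in J1 and 3.0, 2.93 and 3.14 in E14, and was above the filter level on 1 array only, so it carries little information on direction. Neat1 1428083_at and Malat1 1436202_at had the same order of differences, lower in J1 and higher with both hairpins.

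Tug1 probe sets disagreed with each other. The brightest, 1415708_at, read 8.71 in the J1 control and 7.76 after Tet1 siRNA, and 7.93, 7.96 and 7.52 in E14. Here the J1 control stood above the other 4 arrays, and the J1 array with Tet1 siRNA kept 51.8% of it (a difference of -0.95). With the hairpins, the differences of this probe set were 0.03 and -0.41. Probe set 1456398_at read 6.78 and 7.02 in J1 and 7.52, 7.71 and 7.28 in E14, higher on each E14 array, with Tet1 differences of 0.24, 0.19 and -0.24. Probe set 1426771_at read 5.88 and 5.30 in J1 and 4.83, 4.46 and 4.45 in E14. It was lower on each E14 array, and it was the Tug1 probe set with a negative difference in all 3 depletions (-0.58, -0.37 and -0.38).

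Miat stayed near its control level on every array measured. Probe set 1455325_at read 5.06 and 4.92 in J1 and 5.08, 5.07 and 5.06 in E14. Probe set 1458903_at read between 3.46 and 3.48 on the 5 arrays, close to the array medians. Its differences and those of 1455325_at lay between -0.14 and 0.02 in all comparisons, so no Miat difference was detectable at this signal.

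Gas5, the snoRNA host, differed little from its controls, with median differences over its 4 probe sets of 0.22 in J1, 0.36 with shRNA3387 and 0.25 with shRNA2863. Its brightest probe set, 1449410_a_at, read 9.26 and 9.51 in J1 and 10.48, 11 and 10.84 in E14 with scramble, shRNA3387 and shRNA2863. The E14 arrays all lay above the J1 arrays, and within each system the control was the lowest. The Tet1 differences were 0.25 in J1, 0.52 with shRNA3387 and 0.36 with shRNA2863. Probe set 1419291_x_at differed by 0.19, 0.43 and 0.22, and 1424843_a_at by 0.30, 0.29 and 0.28. The fourth, 1436222_at, differed by -0.04, 0.10 and -0.27, so 3 of 4 probe sets were higher in each of the 3 depletions. All of these lie inside the middle 95% of all probe sets. A further Gas5 probe set, listed together with the snoRNA gene Snord47 and so not counted among the 18, differed by -0.21, -0.05 and -0.16.

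**Figure D2:**
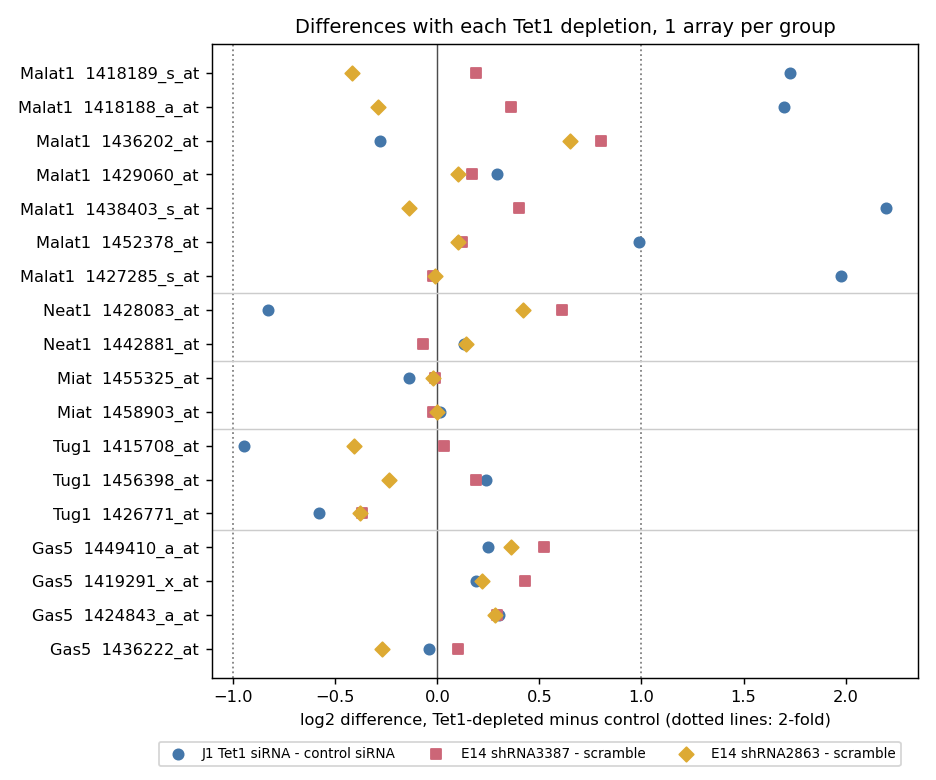
Log2 difference of each depleted array from its own control for the 18 probe sets (rows, grouped by gene). Markers are single differences between 2 arrays, both hairpins share the scramble array, and dotted lines mark 2-fold. Only 4 Malat1 probe sets in J1, at 1.70 to 2.20, lie beyond a dotted line.

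At 1.5-fold, 7 of the 18 probe sets differed in J1 (12.3% of all probe sets did), 2 with shRNA3387 (9.43%) and 1 with shRNA2863 (7.21%). In J1 these were 5 Malat1 probe sets higher, and Neat1 1428083_at and Tug1 1415708_at lower. Just outside was Tug1 1426771_at, 1.5-fold lower after rounding (66.9% of its control). With the hairpins they were Malat1 1436202_at with both and Neat1 1428083_at with shRNA3387. The SD of the difference between the hairpin arrays, divided by the square root of 2, was 0.202 over all probe sets above the filter. The hairpin arrays are the only arrays of 1 line that share a target.

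Levels in the systems split the RNAs, with Malat1 lower and Gas5 higher in E14. Between the control arrays (E14 scramble minus J1 control siRNA), Malat1 differed by -1.92, -2.02, -1.81 and -1.69 in the 4 probe sets with the largest J1 differences, a 3.23-fold to 4.06-fold lower level in E14. It differed by -0.98 in 1429060_at, -0.06 in 1452378_at and 0.03 in 1436202_at. Gas5 differed by 1.22, 1.22, 0.71 and 0.90, that is, 1.64-fold to 2.33-fold higher in E14, and by 1.22 in the probe set shared with Snord47. Tug1 differed by -0.78, 0.74 and -1.05, and Neat1 by -0.01 and 0.19. Of 11 feeder markers above the filter, limma called Col1a2 (-2.47) and Sparc (-1.86) lower in E14 and none higher. By brightest probe set, 8 of the 11 read higher in E14 and 3 lower between the control arrays (median 0.08). Their further probe sets differed there by -2.99 (Col1a1), -1.71 (Col1a2), 0.87 (Col3a1), 0.33 (Fn1) and -1.39 to 0.06 (Sparc). With Tet1 siRNA in J1 these differed by -3.0, -0.86, 0.02, -1.15 and -0.03 to 0.07, in the same order. The part of feeder RNA in the Malat1 level and in the J1 differences was not tested.

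Of the 18 probe sets, 2 were at least 2-fold higher in E14 (3.38% of all probe sets) and 5 at least 2-fold lower (8.34%), and 12 passed 1.5-fold either way (26.3%). Every E14 array was above every J1 array in 6 of the 18, against 25.7% of all probe sets. These were the 4 of Gas5, Tug1 1456398_at and, by a gap of 0.03, Malat1 1436202_at. Every E14 array was below every J1 array in 6, against 25.0% of all. These were 5 of Malat1 and Tug1 1426771_at. The share of probe sets separated by system was thus large across the whole array. In limma over all 5 arrays, with terms for system and for Tet1 depletion, 6.06% of the 24018 probe sets were called higher and 11.6% lower in E14.

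**Figure D3:**
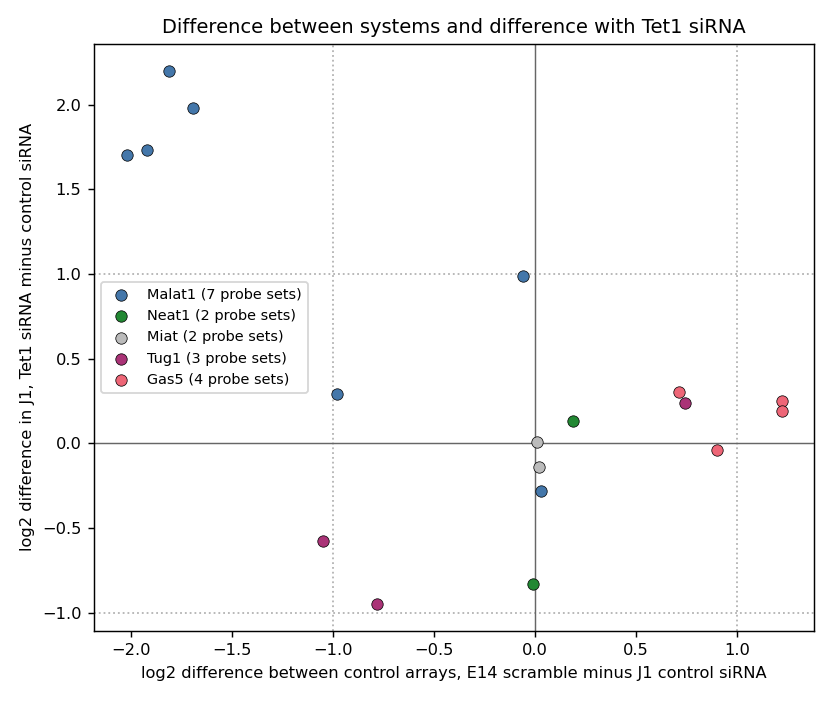
Each point is 1 probe set of the 5 RNAs, placed by its log2 difference between the control arrays (x axis, E14 minus J1) and its log2 difference with Tet1 siRNA in J1 (y axis); dotted lines mark 2-fold. The axes share the J1 control array. The 4 Malat1 probe sets at the upper left have differences of -2.02 to -1.69 between systems and 1.70 to 2.20 with Tet1 siRNA.

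The J1 difference and the system difference of Malat1 share the J1 control array, so they are set side by side and not compared. Among the depleted arrays alone, the brightest Malat1 probe set was lower in E14 than in J1 by a difference of -3.77 (mean of both hairpin arrays minus the J1 Tet1 siRNA array), against -1.92 between the controls. For Neat1 1428083_at the depleted arrays differed by 1.33 and the controls by -0.01. For Gas5 both pairs put E14 higher. These means over hairpin arrays were chosen after seeing the data.

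Genes beside the 5 RNAs on the chromosome had smaller J1 differences than Malat1. Around Malat1 and Neat1, the Tet1 differences of Znrd2 were -0.13 for J1 siRNA, -0.13 for shRNA3387 and -0.04 for shRNA2863, and those of Frmd8 were 0.10, 0.26 and 0.02 in this order. Ltbp3, which encodes a TGF-beta binding protein, read 3.68 and 3.97 in J1 and 3.91, 4.94 and 4.22 in E14, a difference of 1.03 with shRNA3387. Slc25a45 lay within 0.04 of its control and Tigd3 was under the filter level. Beside Tug1, the chromatin protein gene Morc2a differed by -0.34, 0.22 and 0.22, and Osbp2 was under the filter. Beside Gas5, Zbtb37 differed by -0.32, -0.52 and -0.12 and Serpinc1 by 0.06, -0.03 and -0.01. Beside Miat, Crybb1 lay within 0.02 of its control and Cryba4 was under the filter. The remaining genes among the nearest 3 on each side had no probe set of exactly 1 symbol matched by Entrez identifier. Among them was the small RNA Mascrna, which is cut from the 3' end of Malat1.

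The genes with array profiles nearest to Malat1 were found by the distance of their brightest probe sets over the 5 arrays, each centred on its own mean. The kinase gene Nrk was nearest at 0.752 log2 units, and read 7.84 and 9.22 in J1 and 5.26, 5.73 and 5.81 in E14. The other 3 were Plet1 (0.895), the iodide transporter gene Slc5a5 (0.923) and Dmkn (0.937). By brightest probe set their J1 differences were 0.68, 0.69 and 0.96, smaller than those of Malat1 and Nrk (1.38), and each was lower in E14. Nearest to Gas5 were the phosphatase gene Ppm1h (0.079), the phosphodiesterase gene Pde4b (0.178), Higd1a (0.197) and Ier3ip1 (0.22). They differed by 1.27, 1.08, 1.30 and 1.31 between the control arrays, beside 1.22 for Gas5. All these genes were picked by likeness over the same 5 arrays, so like differences follow from the choice. Further probe sets differed there by 0.07 (Pde4b), -0.26 to 0.09 (Higd1a) and 0.09 (Ier3ip1). Those of the genes near Malat1 differed by -1.43 to -0.55 (Nrk), -1.33 to 0.14 (Plet1) and -0.77 (Slc5a5). With Tet1 siRNA in J1 the same further probe sets differed by 1.70 to 2.09 (Nrk), 0.11 to 1.61 (Plet1) and 1.21 (Slc5a5). Ppm1h and Dmkn had no further probe set above the filter.

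Among other snoRNA hosts, 10 of 21 were called higher in E14, where Gas5 also read higher. Of 26 listed hosts other than Gas5, 21 were measured above the filter. Limma called 10 of these higher and 3 lower in E14, each host by its brightest probe set. Over all probe sets above the filter, not 1 per gene, 6.06% were called higher and 11.6% lower. Snhg8 read 6.65 and 7.22 in J1 and 10.58, 10.47 and 10.24 in E14, a fitted difference of 3.48 ± 0.23 (SE, limma, adjusted p = 0.0117). Snhg3 read 7.29 and 7.67 in J1 and 10.55, 10.08 and 10.11 in E14 (2.78 ± 0.23 SE, adjusted p = 0.0137). Each E14 array of both hosts lay far above each J1 array. Snhg6 differed by 2.01 ± 0.18, Dancr by 1.61 ± 0.17, Taf1d by 1.60 ± 0.13, Zfas1 by 1.37 ± 0.08 and Snhg5 by 1.24 ± 0.09, with smaller differences for Snhg10 (0.86), Snhg12 (0.79) and Snhg1 (0.52). For these 8, adjusted p in limma lay between 0.0112 and 0.0406. For Taf1d, the difference between the control arrays was positive in 5 of 6 further probe sets, with a range of -2.16 to 1.32.

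The hosts called lower were the protein-coding genes Eif4a1, Eif4a2 and Hspa8, with fitted differences of -0.45, -0.55 and -0.20. The median host differed by 0.17 between the control arrays, where the median gene differed by 0.02. Every E14 array was above every J1 array in 14 of the 21 hosts and below in 3, against 3689 and 2965 of 13619 genes. The count of 10 higher fell to 6 without either control array, and to 0 without the J1 Tet1 siRNA array, shRNA3387 or shRNA2863. These hosts are named because the test called them, after their values were seen. The array controls for 18S ribosomal RNA moved with the systems too: the 3' probe set read 6.05 and 5.76 in J1 and 11.43, 9.75 and 10.28 in E14, and its part in the Gas5 and host results was not tested.

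**Figure D4:**
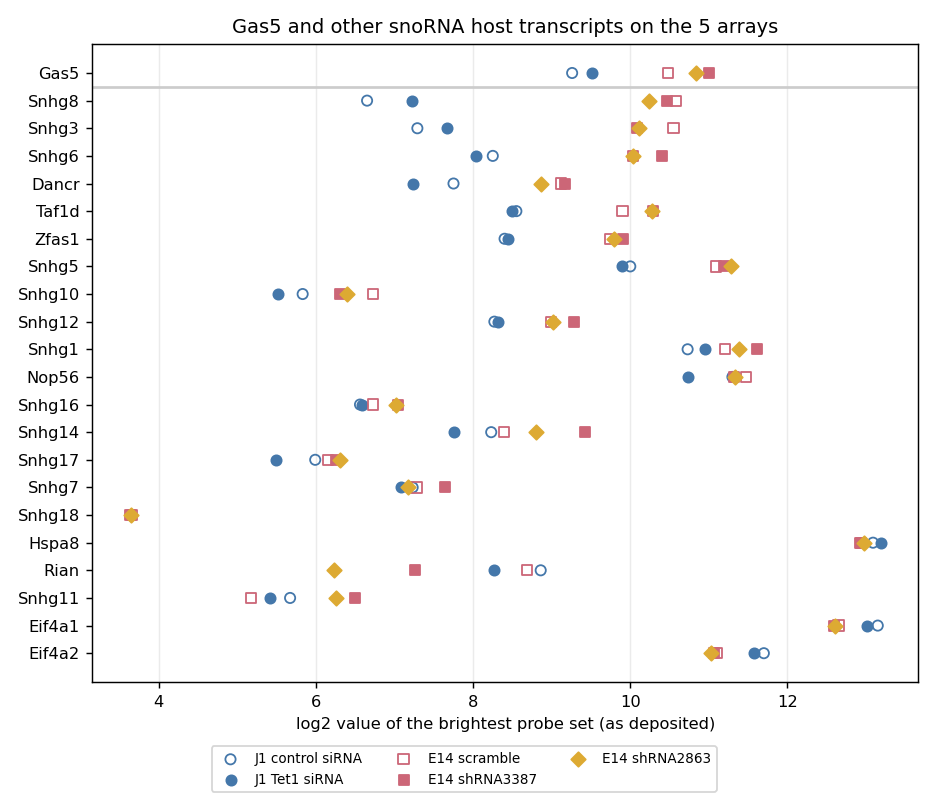
Log2 level of the brightest probe set of Gas5 (top row) and of the 21 other snoRNA host transcripts above the filter on the 5 arrays, ordered by the difference between control arrays. The upper hosts, Snhg8 to Snhg5, have E14 arrays to the right of both J1 arrays, as Gas5 does, and Eif4a1 and Eif4a2 at the bottom have them to the left.

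With Tet1 depletion the hosts did not move together. Limma called 0 of the 21 (and 0.0% of all 24018 probe sets, where the smallest adjusted p was 0.737 and 1519 had an unadjusted p under 0.05). Of the 21, 1 had an unadjusted p under 0.05. Their medians were -0.13, 0.10 and 0.01 in J1 siRNA, shRNA3387 and shRNA2863, beside -0.01, -0.02 and -0.01 for all genes. Higher in all 3 were 4 hosts, led by Snhg1 (0.22, 0.40 and 0.18), Snhg16 (0.02, 0.31 and 0.29) and Snhg12 (0.04, 0.30 and 0.03). Lower in all 3 were 5, led by Rian, an imprinted RNA of the Dlk1 and Meg3 region (-0.60, -1.43 and -2.46), Snhg10 (-0.31, -0.42 and -0.33) and Nop56 (-0.57, -0.15 and -0.14).

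Transcripts that share other features with Gas5 gave a mixed picture. Of 16 mRNAs with an oligopyrimidine start above the filter, 2 were called higher and 5 lower in E14 in limma, among them Rps18 (0.31 higher) and Pabpc1 (-0.52). The other Pabpc1 probe set differed by 0.87 between the control arrays, and limma without a trend called 0 higher and 1 lower. Their medians with Tet1 depletion were -0.01, -0.015 and 0.015. Of 13 factors of nonsense-mediated decay, the helicase gene Upf1 was called higher in E14 (0.72 ± 0.11 SE, adjusted p = 0.0309 in limma) and none lower. With Tet1 siRNA in J1, 10 of the 13 read lower than their control (median -0.22), beside 6865 of 13619 genes. By brightest probe set, those lower in all 3 depletions included Gspt1 (-0.42 in J1), Rbm8a (-0.30) and Upf1 (-0.29). Further Gspt1 probe sets differed by -0.39 to 0.09 in J1, -0.05 to 0.64 with shRNA3387 and 0.05 to 0.71 with shRNA2863. The other Rbm8a probe set differed by 0.34, -0.17 and -0.29 in this order. Smg5 differed by -0.33 in J1 and by 0.35 and 0.45 with the hairpins. With the hairpins the medians of the 13 factors were -0.02 and -0.01. For these transcripts and factors, limma called 0 with Tet1 depletion, and 0 had an unadjusted p under 0.05. Leaving out any 1 array also left 0 called between the systems in both lists.

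Among genes of the nuclear bodies that hold Malat1 and Neat1, none was called with Tet1 depletion. Of 31 genes of nuclear speckles and Malat1 RNA processing above the filter, limma called 0 with depletion, and 1 had an unadjusted p under 0.05. Their medians were -0.12, 0.01 and -0.01, and 24 of the 31 read lower with Tet1 siRNA in J1, beside 6865 of 13619 genes. The splicing factor Sf3b1 differed by -0.20, -0.38 and -0.22, Elac2, which encodes the tRNA 3' end nuclease, by -0.25, -0.33 and -0.10, and Luc7l3 by -0.37, -0.09 and -0.13. Tra2a was higher in all 3, by 0.20, 0.22 and 0.08. At least 1.5-fold different were 3 of the 31 in J1, namely Pnisr (-0.87), Son (0.78) and Acin1 (-0.64). With shRNA3387 there was 1 (Prpf4b, 0.66) and with shRNA2863 1 (Pop1, 0.84), and all of these were named after their values were seen. Further probe sets disagreed in J1, where the other Acin1 probe set differed by 0.82. The sign was shared by 2 of 6 further Son probe sets (-0.72 to 0.10) and 4 of 6 of Pnisr (-0.85 to 0.83). Between systems, 5 were called higher and 2 lower in E14, led by the speckle scaffold genes Son (2.39 ± 0.22 SE, adjusted p = 0.0156 in limma) and Srrm2 (-1.73 ± 0.12 SE, adjusted p = 0.012). For Son, that difference was positive between the control arrays in 1 of 6 further probe sets, with a range of -2.41 to 0.50. The remaining Srrm2 probe sets differed there by -0.09 and -0.03. The counts were 3 higher and 3 lower after median centring, 3 and 2 without the filter, and 0 or 1 higher and 0 lower without 1 array.

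Of 27 paraspeckle protein genes above the filter, 5 were called higher and 3 lower in E14, and 0 with Tet1 depletion (2 at an unadjusted p under 0.05). Their medians with depletion were -0.05, 0.02 and 0.03. The core proteins divided, with Sfpq called higher (0.61 ± 0.05 SE, adjusted p = 0.0134 in limma) and Nono lower (-0.60 ± 0.07 SE, adjusted p = 0.0201). Between the control arrays, 3 of 5 further Sfpq probe sets were higher in E14 (range -1.14 to 0.23) and 2 of 3 further Nono probe sets lower. Cirbp, a cold-inducible RNA-binding protein, was called higher by 1.52 and Hnrnph1 lower by a difference of -1.0, but the only other Hnrnph1 probe set differed by 0.57 between the control arrays. Taf15 differed by 0.90 in J1 and by -0.04 and -0.01 with the hairpins, but its other probe set by 0.01, 0.85 and 0.54. Tardbp, which encodes TDP-43, was higher by 0.26 with J1 siRNA, 0.50 with shRNA3387 and 0.29 with shRNA2863. Hnrnpk was higher by 0.21, 0.10 and 0.17 in this order. Further Tardbp probe sets differed by -0.78 to 0.49, 0.08 to 0.31 and -0.14 to 0.21. Further Hnrnpk probe sets differed by -0.09 to 0.10, -0.06 to -0.02 and 0.02 to 0.06. Lower in all 3 were 6 genes, led by Hnrnpul1 (-0.44, -0.14 and -0.07), Rbm14 (-0.33, -0.20 and -0.01) and Zfp24 (-0.11, -0.29 and -0.06). Without 1 array at most 1 gene each way was called between systems.

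Of 12 listed regulators of Malat1, Neat1 and transcription, 9 were above the filter. Nfe2l2, a factor of the oxidative stress response, read 8.51 and 8.84 in J1 and 7.66, 8.15 and 8.12 in E14. It was higher than its control in all 3 depletions (0.33, 0.49 and 0.46), as were Yy1 (0.02, 0.19 and 0.35) and the elongation kinase gene Cdk9 (0.04, 0.13 and 0.12). Limma called 0 of the 9 with depletion, with 1 at an unadjusted p under 0.05. Between systems Polr2a, the largest subunit of RNA polymerase II, was called higher in E14 (1.70 ± 0.12 SE, adjusted p = 0.0117 in limma). Its other probe set differed by 0.28 between the control arrays, where the brightest differed by 1.6. Nfe2l2 (-0.77) and Hif1a (-0.60) were called lower. Without 1 array 0 of the 9 were called.

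Several other long noncoding RNAs also differed by at least 1.5-fold with a depletion. Of 65 listed, 39 were on the array and 24 above the filter, with median Tet1 differences of -0.09, 0.09 and -0.01. At least 1.5-fold different were 8 of the 24 in J1, 6 with shRNA3387 and 4 with shRNA2863, beside 1226, 1191 and 938 of 13619 genes. Kcnq1ot1, an imprinted antisense RNA, read 7.28 and 6.67 in J1 and 6.13, 7.97 and 7.70 in E14, lower with Tet1 siRNA and higher with both hairpins. Firre differed by -1.05 in J1 and by 1.0 and 0.39 with the hairpins, and Platr10 by -1.43, 0.10 and -0.67. These 3 were picked after their values were seen. The X-linked Ftx read 5.33 and 5.46 in J1 and 5.06, 6.58 and 5.95 in E14, higher with depletion by 0.13, 1.52 and 0.89. Lower in all 3 were Six3os1 (-0.08, -0.89 and -0.88), Platr4 (-0.84, -0.16 and -0.08) and Airn (-0.18, -0.62 and -0.20). Airn read between 3.25 and 3.87, close to the array medians. Its further probe sets differed by 0.01 to 0.19 in J1, -0.29 to 0.32 with shRNA3387 and -0.28 to -0.03 with shRNA2863. Six3os1 was above the filter level with the scramble hairpin only. Limma called 0 of the 24 with depletion, and 0 had an unadjusted p under 0.05. Between systems it called 1, the imprinted Mirg, higher in E14 by 1.34 ± 0.25 (SE, adjusted p = 0.0457), whose other probe set had the opposite sign between the control arrays. Without 1 array that call was lost, as it was after median centring (lowest adjusted p = 0.0521 in limma) and without the filter (0.0549).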

How the data were processed

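The values are probe set summaries of 5 arrays, on a log2 scale as deposited by the authors; the scale was read from their range (1.38 to 14.12). How they were summarised and normalized is not given in the sources used here, and nothing further was applied to them. Of 45101 probe sets, 64 were array controls, 932 had several symbols and 9211, some array controls among them, had none. Exactly 1 symbol was given for 34945, of which RefSeq (GRCm38.p6) held 34754 by Entrez identifier, with 0 symbols changed. Above the filter (the 40th percentile of the array, on at least 1 array) were 24018 probe sets and 13619 genes.

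Differences between single arrays were described with a 2-fold threshold. The model across probe sets was fitted in R 4.3.3 with limma 3.58.1 and its trend option, two-sided and adjusted by Benjamini-Hochberg over the 24018 probe sets (threshold 0.05). The fit had terms for system and depletion and 2 residual degrees of freedom, and was tested on simulated data. Its p-values reflect no more than how these 5 arrays vary, and their number limits the precision. With 1 array left out, 1 residual degree of freedom stays and a lone array is assumed to vary like the others. The brightest probe set stood for a gene in the lists, and further probe sets of a gene did not always share the sign of its difference.

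The 5 RNAs, the lists and the rule for naming genes were chosen with earlier results of these data known. Named were all probe sets of the 5 RNAs, up to 3 genes each way per list with the largest mean of 3 same-sign Tet1 differences, the nearest 3 genes on each side, and the 4 nearest profiles for each RNA past 2-fold. Genes named because limma called them between systems were picked after their values were seen. Alternatives were quantile normalization, median centring, other filters, the median over probe sets, limma without a trend or without the system term, a 1.5-fold threshold and leaving out each array.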

Additional observations from a re-analysis of the deposited data

Results flagged for a closer look

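In 3 probe sets the J1 difference and both hairpin differences had opposite signs. The mean hairpin difference minus the J1 difference was 1.0 for Malat1 1436202_at, 1.34 for Neat1 1428083_at and -2.0 for Malat1 1427285_s_at. For the last of these, the hairpin differences were -0.02 and -0.01, so the contrast restates the J1 difference. These differences between systems were not tested.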

How the results depend on the processing

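After quantile normalization and after median centring, 20 of 20 values (the brightest probe set of each RNA in 4 comparisons) moved by less than 0.202. That limit is the SD of the difference between the hairpin arrays divided by the square root of 2. At 1.5-fold the counts were 7 in J1, 2 with shRNA3387, 1 with shRNA2863 and 12 between the controls. As the median over probe sets, the J1 difference was -0.35 for Neat1 and -0.58 for Tug1, Neat1 with shRNA3387 0.27, Malat1 with shRNA2863 -0.01 and Malat1 between the controls -1.69. Between depleted arrays, a comparison added after seeing the data, the system difference was -3.77 for Malat1, 1.33 for Neat1 and -0.02 for Tug1. Of 4238 probe sets called between systems, 0 to 2151 were called with 1 array left out (0 without the J1 Tet1 siRNA array, shRNA3387 or shRNA2863), and 0 to 6 of 10 snoRNA hosts. Fewer arrays leave 1 residual degree of freedom. Of 116 alternatives, 94 stayed within the limits set (1.5 times for a count, counts of limma calls included, and 0.202 for a difference). None turned the sign of a difference past 2-fold, while Neat1, at -0.01 between the controls, turned positive between the depleted arrays. No paired analysis was possible because each group holds 1 array. Signal limits Neat1 1442881_at and Miat 1458903_at, which lie near the filter level or the array median.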
